A study of Mus musculus with 384 samples.

Results

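The markers of liver sinusoidal endothelium described here are 10 genes, Stab1, Stab2, Lyve1, Clec4g, Kdr, Tek, Ptprb, Pecam1, Vwf and Oit3, out of 21454 genes with values in the liver RNA table. They were found through their Ensembl identifiers in the GENCODE M21 annotation, and all 10 were among the 14602 genes that passed the filter on low values, so none was lost to it. The livers came from 192 wild-type Diversity Outbred mice, an outbred stock bred from several inbred founder strains, so each animal had a different genome. All were killed at 26 weeks of age after eating either a high fat diet (22% fat by weight) or standard chow (6% fat by weight) since weaning. There were 46 M and 48 F mice on the high fat diet, and 48 M and 50 F mice on chow. The letters M and F of the mouse names matched the labelled sex in every mouse. Each group held mice of the outbreeding generations G11L2 and G11L1, with 21 and 25 in M high fat, 24 and 24 in F high fat, 25 and 23 in M chow, and 25 and 25 in F chow livers. What L1 and L2 stand for was not given in the sources used here.

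Blood in the liver flows through sinusoids, capillaries whose endothelium is perforated and lacks a continuous basement membrane. These cells take up waste molecules through scavenger receptors, carry the receptors for vascular endothelial growth factor (VEGF) and angiopoietins, and release factors that act on hepatocytes and stellate cells. In injured or fatty liver the sinusoid wall is known to lose its perforations and to gain features of ordinary capillaries, a change called capillarisation. Whole liver RNA is mostly hepatocyte RNA. In such bulk samples, fewer cells of a type and less RNA per cell cannot be told apart.

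The liver label held in the marker check, with albumin (Alb) at a median signal of 12884 in M high fat, 18053 in F high fat, 15823 in M chow and 20530 in F chow livers. Some libraries stood apart. A mouse labelled F in the chow group had an Xist signal of 0.361, against a highest value of 2.47 in M mice and a lowest of 88.2 in the other F mice. Leaving it out moved no log2 change of the 10 markers by more than 0.0142. Summed RNA of pancreatic enzymes exceeded 5 times the median of all mice in 11 mice, namely 2 M high fat, 2 F high fat, 4 M chow and 3 F chow mice. Results that changed without them are given with both values. Estimated depth was 9.79 to 17.9 M reads (megareads) per mouse, with medians of 13.8 in M high fat, 13.9 in F high fat, 14.6 in M chow and 14.3 in F chow livers.

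The members fell into 3 roles. Stab1, Stab2, Lyve1 and Clec4g encode uptake receptors: stabilin-1 and stabilin-2 are scavenger receptors, stabilin-2 also clears hyaluronan, LYVE1 binds hyaluronan, and CLEC4G is a C-type lectin. Kdr, Tek and Ptprb encode signalling receptors: KDR is VEGF receptor-2, TEK is the angiopoietin receptor Tie2, and PTPRB is a phosphatase of endothelium that acts on Tie2. Pecam1 encodes a junctional adhesion molecule, Vwf the clotting protein that tethers platelets, and Oit3 a secreted protein known from liver. Stab1 is on chromosome 14 and Stab2, Ptprb and Oit3 are on chromosome 10. Lyve1 is on chromosome 7, Clec4g on 8, Kdr on 5, Tek on 4, Pecam1 on 11 and Vwf on 6. Exons of Stab1 overlap Nt5dc2 on the other strand, and those of Stab2 and Clec4g overlap the antisense genes Gm16268 and Gm16553. The strandedness of the counting was not given, so reads from those overlaps cannot be told apart. Of the 31-base words in a member's transcripts, at most 3.50% (Clec4g) also occurred in another gene.

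Promoter windows were at hand for 5 members, and those of Stab1, Stab2, Kdr and Tek are shown. Each holds the 300 bases around the RefSeq start on build GRCm38.p6, from 250 bases before to 50 after it, read along the gene's strand. Stab1 is at chr14:31168592-31168891, Stab2 at chr10:87007893-87008192 and Kdr at chr5:75978406-75978705, all on the minus strand, and Tek is at chr4:94739039-94739338 on the plus strand. Capitals mark GGAA, the core of ETS factor motifs, and GATA, on either strand, so TTCC and TATC are capitalised too. No 2 matches overlapped.
Stab1: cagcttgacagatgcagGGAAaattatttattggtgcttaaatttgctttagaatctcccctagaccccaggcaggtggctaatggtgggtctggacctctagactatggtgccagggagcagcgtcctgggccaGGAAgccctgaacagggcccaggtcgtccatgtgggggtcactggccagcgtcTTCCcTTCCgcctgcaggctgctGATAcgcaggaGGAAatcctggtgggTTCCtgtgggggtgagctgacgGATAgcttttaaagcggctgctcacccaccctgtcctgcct
Stab2: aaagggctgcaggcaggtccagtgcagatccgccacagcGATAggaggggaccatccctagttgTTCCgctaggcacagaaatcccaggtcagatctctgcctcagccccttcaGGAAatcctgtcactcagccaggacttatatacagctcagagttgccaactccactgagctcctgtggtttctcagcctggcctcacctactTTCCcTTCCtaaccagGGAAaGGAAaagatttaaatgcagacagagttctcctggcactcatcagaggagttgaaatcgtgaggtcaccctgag
Kdr: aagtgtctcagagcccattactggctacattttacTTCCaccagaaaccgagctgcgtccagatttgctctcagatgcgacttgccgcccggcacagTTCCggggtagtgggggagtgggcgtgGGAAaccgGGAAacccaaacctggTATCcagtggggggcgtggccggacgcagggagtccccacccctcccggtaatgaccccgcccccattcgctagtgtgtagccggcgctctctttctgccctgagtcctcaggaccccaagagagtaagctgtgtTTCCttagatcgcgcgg
Tek: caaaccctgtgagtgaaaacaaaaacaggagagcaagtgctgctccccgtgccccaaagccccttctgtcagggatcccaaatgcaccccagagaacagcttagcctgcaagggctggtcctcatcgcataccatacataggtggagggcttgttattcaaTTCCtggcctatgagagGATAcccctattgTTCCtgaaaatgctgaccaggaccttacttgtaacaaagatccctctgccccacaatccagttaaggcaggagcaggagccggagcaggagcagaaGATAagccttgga

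GGAA or its complement occurred 6 times in the Stab1 window, 6 times in that of Stab2, 5 times in that of Kdr and 2 times in that of Tek. GATA occurred 2 times, 1 time, 1 time and 2 times in the same order of genes. The Clec4g window, not printed, held GGAA 5 times and GATA 3 times. In the Stab2 window, 4 of the GGAA matches lay within the 44 bases before the start. Of 32851 promoter windows of this length, 96.0% held GGAA at least once, 28.6% held it at least 5 times, and 57.9% held GATA. These matches describe letters only, since no binding was measured.

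Levels per exon length covered a wide range (see the plot of signal per kb). Over the 192 mice, Clec4g had the highest median, 5.15 per kb of exon, and Vwf the lowest, 0.152 per kb. Between them stood Oit3 at 2.69, Stab2 at 2.46, Ptprb at 2.13, Kdr at 1.95, Stab1 at 1.78, Pecam1 at 0.916, Tek at 0.865 and Lyve1 at 0.752 per kb. In each of the 192 mice Clec4g exceeded Oit3 per kb, in 191 Stab1 exceeded Pecam1, and in 187 Lyve1 exceeded Vwf. The other neighbours in this order were separated by less than their spread: Oit3 exceeded Stab2 in 122 mice, Stab2 exceeded Ptprb in 149, Ptprb exceeded Kdr in 126, Kdr exceeded Stab1 in 140, Pecam1 exceeded Tek in 110 and Tek exceeded Lyve1 in 113.

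**Figure D1:**
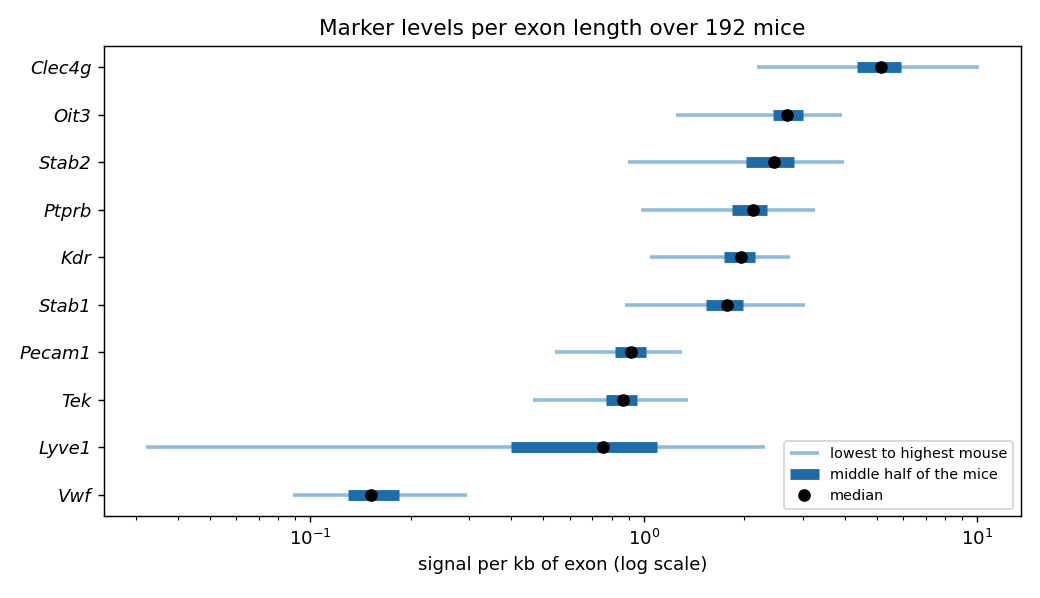
Signal per kb of exon (horizontal log axis) of each marker over 192 mice, with the median as a point, the interquartile range as a thick bar and the lowest to highest mouse as a thin bar. Clec4g (median 5.15 per kb) stands apart at the top and Vwf (0.152 per kb) at the bottom, and Lyve1 has the widest range.

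The deposited signal of each mouse is given next, without division by length, so it compares a gene with itself across mice (see the plot of values by group). Stab1 had a lowest, median and highest signal of 9.04, 16.6 and 23.4 in M high fat livers and 14.0, 19.8 and 28.1 in F high fat livers. These were 10.8, 17.2 and 24.7 in M chow livers and 12.1, 19.4 and 31.2 in F chow livers. The ranges overlapped, with both M groups lower than both F groups in their medians.

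Stab2 had a lowest, median and highest signal of 8.86, 21.1 and 28.9 in M high fat livers and 12.4, 23.1 and 34.9 in F high fat livers. In M chow livers these were 7.87, 19.5 and 29.4, and in F chow livers 9.34, 23.2 and 31.1. As for Stab1, its medians were lower in M than in F livers. Clec4g had 5.39, 11.1 and 16.5 in M high fat, 8.47, 12.8 and 24.9 in F high fat, 7.70, 12.0 and 19.6 in M chow, and 8.96, 14.1 and 19.3 in F chow livers. A single F high fat mouse gave the value of 24.9, and all groups overlapped.

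Lyve1 was the member that differed most between mice. Its lowest, median and highest signals were 0.444, 2.54 and 6.10 in M high fat livers and 0.475, 2.73 and 6.72 in F high fat livers. They were 0.256, 1.82 and 4.16 in M chow livers and 0.0938, 1.72 and 4.55 in F chow livers. The highest mouse exceeded the lowest 13.7-fold in M high fat, 14.1-fold in F high fat, 16.3-fold in M chow and 48.5-fold in F chow livers. The lowest F chow value lay at 1.49 times the pseudocount, so that last ratio rests on a signal of few reads. Within groups the standard deviation (SD) of the log2 signal was 0.802 in M high fat, 0.926 in F high fat, 0.934 in M chow and 0.948 in F chow livers. It exceeded that of 89.5%, 93.9%, 92.9% and 94.4% of all tested genes in those groups.

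Kdr had a lowest, median and highest signal of 9.43, 15.8 and 21.9 in M high fat and 9.95, 17.8 and 24.8 in F high fat livers. It had 11.0, 16.9 and 22.1 in M chow and 15.3, 19.1 and 24.4 in F chow livers. Of 48 M chow livers, 10 lay below every F chow liver. Tek had 2.20, 3.76 and 4.86 in M high fat, 2.46, 4.24 and 6.39 in F high fat, 2.48, 3.87 and 5.38 in M chow, and 2.74, 4.28 and 5.78 in F chow livers. Ptprb had 13.1, 25.0 and 32.6 in M high fat, 13.3, 27.9 and 43.3 in F high fat, 16.3, 28.5 and 38.0 in M chow, and 19.2, 30.6 and 40.5 in F chow livers. Its medians were lower on the high fat diet in both sexes and lower in M than in F livers on both diets.

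Pecam1 had a lowest, median and highest signal of 3.61, 5.41 and 8.09 in M high fat, 3.37, 6.14 and 7.57 in F high fat, 3.92, 5.32 and 7.21 in M chow, and 4.12, 5.87 and 7.70 in F chow livers. Oit3 had 3.47, 6.65 and 9.36 in M high fat, 4.36, 7.90 and 11.0 in F high fat, 3.74, 7.19 and 9.60 in M chow, and 6.71, 8.35 and 11.0 in F chow livers. Here 14 of 48 M chow livers lay below every F chow liver. Vwf had 1.82, 2.96 and 4.54 in M high fat, 1.68, 2.77 and 4.30 in F high fat, 1.52, 2.11 and 2.88 in M chow, and 1.43, 2.32 and 4.73 in F chow livers. For Vwf, 25 of 46 M high fat livers exceeded the highest M chow liver.

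**Figure D2:**
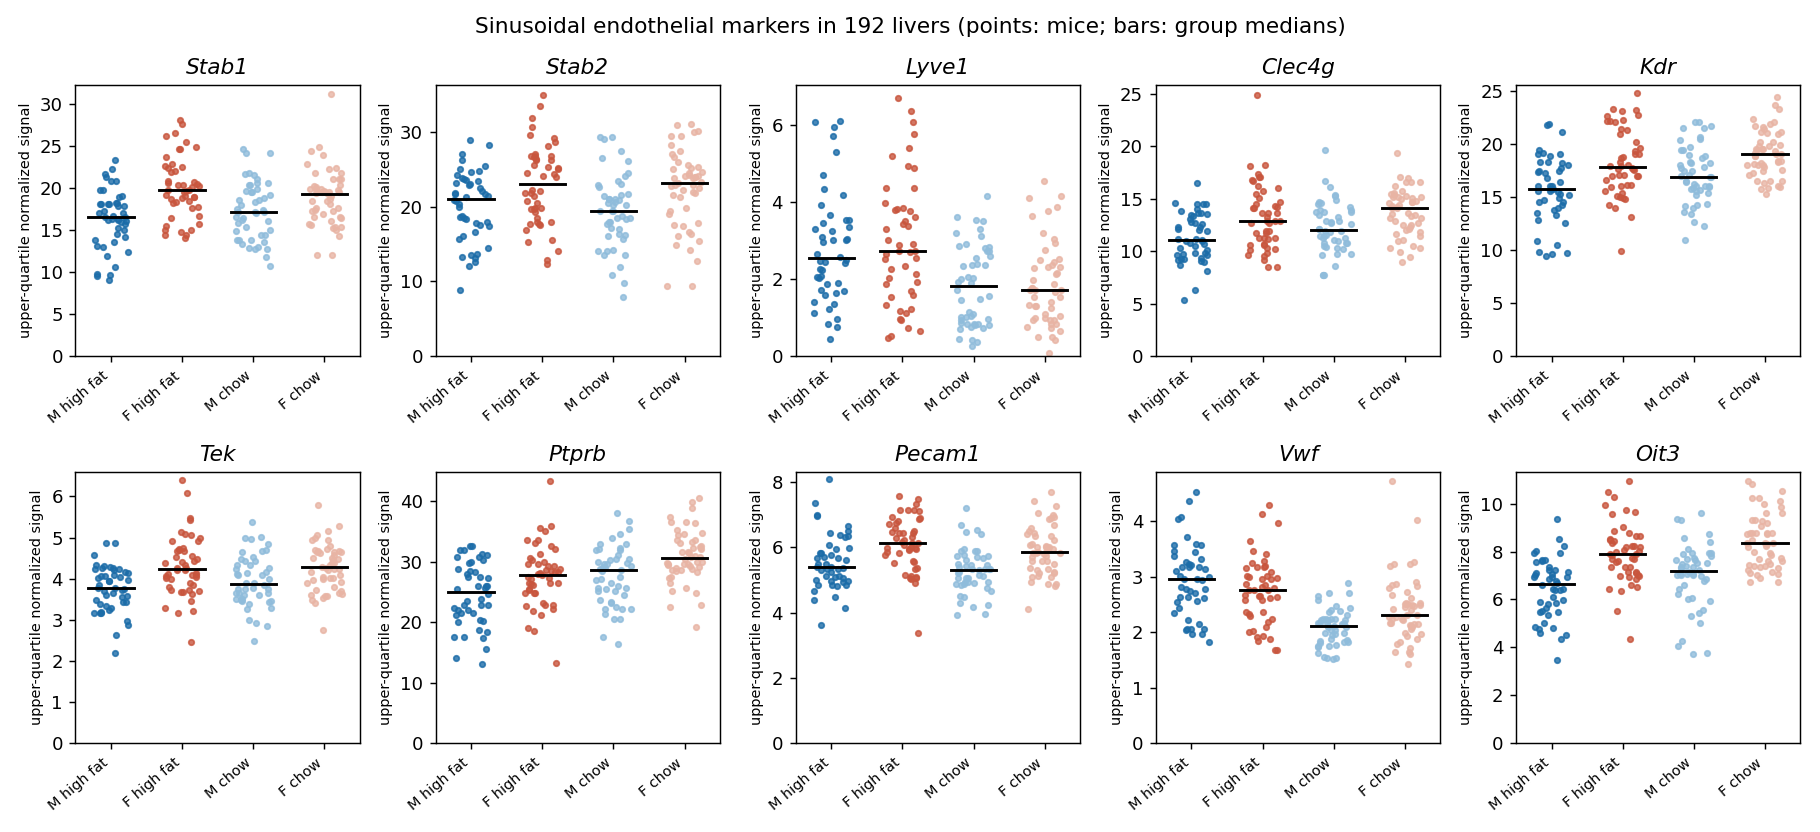
Upper-quartile normalized signal (vertical axes, from 0) of the 10 markers in 46 M high fat, 48 F high fat, 48 M chow and 50 F chow livers, with a point for each mouse and a bar at the group median. Lyve1 and Vwf sit higher on the high fat diet, and most other markers sit lower in M than in F livers, with ranges that overlap.

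Lyve1 and Vwf rose on the high fat diet in both sexes, while no other member changed by more than 0.19 on the log2 scale. Changes are log2 differences ± standard error (SE) from limma, with p-values adjusted by the Benjamini-Hochberg method over all 14602 genes and called under 0.05. In M mice 2 members rose and 2 fell, against 11.4% of all tested genes called higher, 39.8% called lower and 51.2% called at all. In F mice 2 rose and 1 fell, against 10.0% called higher, 23.3% called lower and 33.3% called at all. The median log2 change of the 10 members was -0.09 in M and 0.02 in F mice, beside -0.10 and -0.04 over all genes. A common shift of that size moves small changes, so values after median-of-ratios rescaling, which put the median of all genes at 0.01 in M and 0.00 in F mice, are given beside them.

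Lyve1 averaged 2.82 ± 1.45 in 46 M high fat and 1.84 ± 1.04 in 48 M chow livers, and 2.96 ± 1.63 in 48 F high fat and 1.87 ± 1.09 in 50 F chow livers (SD). Its log2 change on the high fat diet was 0.66 ± 0.19 in M (limma adjusted p = 0.00150) and 0.65 ± 0.18 in F mice (limma adjusted p = 0.00269), or 1.59-fold and 1.57-fold. The rise was seen in 34 of 46 M and 35 of 48 F high fat mice as a value above the chow median of the same sex. The 2 changes differed by 0.01 ± 0.26 (limma adjusted p = 0.985). In M mice the change was 0.85 in G11L1 and 0.44 in G11L2 animals, the second not called (limma adjusted p = 0.171). In F mice it was 0.77 in G11L2 and 0.54 in G11L1 animals, the second not called (limma adjusted p = 0.159).

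Vwf averaged 2.94 ± 0.651 in 46 M high fat and 2.10 ± 0.327 in 48 M chow livers, and 2.75 ± 0.609 in 48 F high fat and 2.42 ± 0.600 in 50 F chow livers (SD). It rose by 0.45 ± 0.06 in M (limma adjusted p = 1.53e-10) and by 0.18 ± 0.06 in F mice (limma adjusted p = 0.0106). Values above the chow median of the same sex were seen in 39 of 46 M and 36 of 48 F high fat mice. In F mice of G11L1 alone the change was 0.12, which was not called (limma adjusted p = 0.300). The rise was larger in M than in F mice by 0.27 ± 0.08 on the log2 scale (limma adjusted p = 0.0278). Of the 10 members only Vwf was called for such a difference, which is close to the 8.38% called of all tested genes. For Vwf the difference was 0.33 after rescaling (limma adjusted p = 0.0133), and 0.18 in G11L2 mice alone, where it was not called (limma adjusted p = 0.592). Platelets also carry von Willebrand factor. The summed signal of 7 platelet markers was 0.354 to 1.48 in M high fat, 0.370 to 2.15 in F high fat, 0.368 to 1.04 in M chow and 0.438 to 1.55 in F chow livers, and Gp1bb, Gp9 and Treml1 were listed at 0 in 133, 108 and 138 of 192 mice. Of 4 such markers tested, Pf4 rose and Gp1ba fell in M mice, and Ppbp rose in F mice. Their part in the change of Vwf was not tested.

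Ptprb fell by 0.19 ± 0.06 in M (limma adjusted p = 0.00215) and by 0.17 ± 0.05 in F mice (limma adjusted p = 0.00847), and Kdr fell by 0.15 ± 0.05 in M mice (limma adjusted p = 0.00641). After rescaling, none of these was called: Ptprb had -0.08 (limma adjusted p = 0.221) and -0.12 (0.0532), and Kdr had -0.04 (0.532). Pecam1 changed by 0.06 in M mice on the deposited scale and rose by 0.17 after rescaling (limma adjusted p = 0.00237). The remaining members were not called in either sex on the deposited scale: their log2 changes were 0.05 and 0.04 for Stab2, -0.10 and 0.08 for Stab1, -0.12 and -0.06 for Clec4g, -0.12 and -0.09 for Oit3, and -0.07 and 0.01 for Tek in M and F mice. Genes with longer exons had more negative diet changes in general, with a median of -0.12 in M mice for 2368 genes of at least 8 kb and -0.07 for 2448 genes under 2 kb. Ptprb (13.3 kb) and Kdr (9.03 kb) are among the long genes. So are Stab1 (10.3 kb) and Stab2 (8.76 kb), which were not called, and Vwf (16.1 kb), which rose. The part of length in their changes was not tested.

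**Figure D3:**
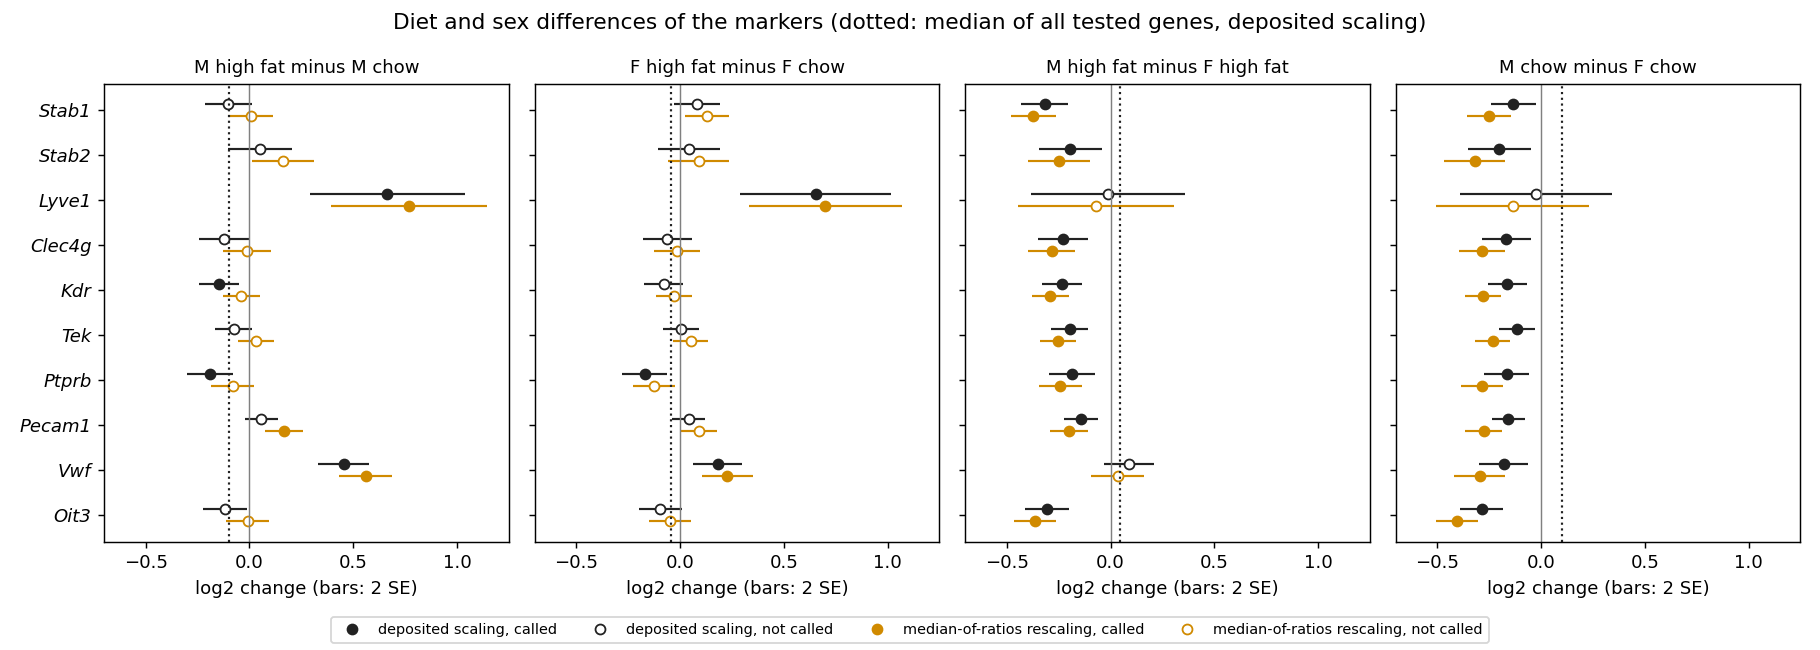
Log2 change of each marker (horizontal axes, bars 2 SE) for high fat minus chow in M and F mice and for M minus F on each diet, in black for the deposited scale and in orange after median-of-ratios rescaling, filled where the limma adjusted p was under 0.05. Lyve1 and Vwf lie right of 0 for diet under both scales, whereas 8 markers on high fat and 9 on chow were called lower in M than in F livers. The dotted line is the median of all tested genes.

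M livers had less RNA of most markers than F livers on both diets. Of the 10 members, 8 were lower and none higher in M than in F high fat livers, against 18.3% of all tested genes called lower, 31.5% called higher and 49.7% called at all. On chow, 9 were lower and none higher in M livers, against 19.1% called lower, 44.1% called higher and 63.3% called at all. The median log2 difference of the members was -0.19 on high fat and -0.16 on chow, beside 0.04 and 0.10 over all genes. After rescaling the members' medians were -0.25 and -0.28, and again 8 and 9 members were called lower.

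Oit3 had the largest difference on chow, with 7.00 ± 1.36 in 48 M and 8.45 ± 1.14 in 50 F chow livers (SD), a log2 difference of -0.29 ± 0.05 (limma adjusted p = 5.04e-07). On high fat it averaged 6.47 ± 1.24 in 46 M and 7.94 ± 1.26 in 48 F livers, a log2 difference of -0.31 ± 0.05 (limma adjusted p = 2.36e-07). It lay below the F median of the same diet in 40 of 46 M high fat and 42 of 48 M chow livers. Stab1 averaged 16.4 ± 3.48 in 46 M and 20.1 ± 3.62 in 48 F high fat livers (SD), a log2 difference of -0.32 ± 0.06 (limma adjusted p = 6.00e-07). On chow its difference was -0.13 ± 0.06 (limma adjusted p = 0.0289), and -0.13 without the 11 mice with pancreas transcripts (limma adjusted p = 0.0511). Its diet changes in M and F mice differed by -0.18 ± 0.08, which was not called (limma adjusted p = 0.129).

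Among the signalling genes, Kdr was lower in M livers by -0.23 ± 0.05 on high fat and -0.16 ± 0.05 on chow, Tek by -0.20 ± 0.04 and -0.12 ± 0.04, and Ptprb by -0.18 ± 0.06 and -0.16 ± 0.05. Stab2 differed by -0.19 ± 0.08 and -0.20 ± 0.08, Clec4g by -0.23 ± 0.06 and -0.17 ± 0.06, and Pecam1 by -0.14 ± 0.04 and -0.16 ± 0.04. All 12 of these differences were called, with limma adjusted p-values between 1.34e-05 and 0.0284. In G11L1 mice alone 4 members were lower in M high fat and 5 in M chow livers, and in G11L2 mice alone 6 and 3, with every one of the 8 and 9 log2 differences still negative in both generations. Without the 10 mice least like the median mouse, Stab2 on high fat (-0.16, limma adjusted p = 0.0826), Tek on chow (-0.09, limma adjusted p = 0.0614) and Stab1 on chow (-0.12, limma adjusted p = 0.0563) were not called.

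Lyve1 stood apart from that pattern on both diets, and Vwf on high fat only. Vwf differed between M and F livers by 0.09 ± 0.06 on high fat (limma adjusted p = 0.211) and by -0.18 ± 0.06 on chow (limma adjusted p = 0.00519). Lyve1 differed by -0.01 ± 0.19 and -0.02 ± 0.18, neither called (limma adjusted p = 0.962 and 0.916), with intervals of -0.38 to 0.35 and -0.38 to 0.33 (95%) that are wide enough to hold the differences of all other members.

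Most other sinusoidal and general endothelial genes had less RNA in M livers too. Of all tested genes, 18.3% were called lower and 31.5% higher in M high fat livers, and 19.1% and 44.1% in M chow livers. Of 17 other tested sinusoidal genes, 14 were lower and none higher in M than in F high fat livers, and 13 were lower and 2 higher on chow. On high fat these include Gpr182 (-0.37), a receptor of sinusoidal endothelium, Fcgr2b (-0.34), an inhibitory Fc receptor, Mrc1 (-0.34), the mannose receptor, and Cd36 (-1.09), a fatty acid transporter that hepatocytes also make. Of 20 general endothelial genes, 13 were lower and 1 higher in M high fat livers, and 12 lower and 2 higher in M chow livers, among them Esam (-0.26 on high fat) and Fli1 (-0.44 on chow). Of 19 capillary and large vessel genes, 4 were lower and 2 higher in M high fat livers, and 7 lower and 1 higher in M chow livers. Those higher were Cav1, the coat protein of caveolae, by 2.08 on high fat and 2.24 on chow, and Selp, the adhesion molecule P-selectin, by 0.56 on high fat. Markers of other cells differed as well. Macrophage markers were lower in M livers for 12 of 14 genes on high fat and 13 of 14 on chow, with a summed signal of 46.4 to 234 in M high fat, 50.8 to 251 in F high fat, 37.8 to 159 in M chow and 65.3 to 414.8 in F chow livers. Lymphocyte markers were lower in M livers for 11 of 11 genes on both diets, with a summed signal of 0.263 to 2.12 in M high fat, 0.852 to 4.62 in F high fat, 0.473 to 2.06 in M chow and 0.893 to 3.75 in F chow livers. Stellate cell and fibroblast markers were lower for 2 and higher for 3 of 13 on high fat, and lower for 8 of 13 on chow. The part of those cells in the differences of the members was not tested.

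On the high fat diet, 11.4% of all tested genes were called higher and 39.8% lower in M mice. In F mice these shares were 10.0% and 23.3%. The counts of gene lists below are to be read beside these shares. Some genes of capillaries and large vessels rose on this diet. Of 19 tested, 9 rose and none fell in M mice, and 4 rose and 2 fell in F mice, with median log2 changes of 0.22 and 0.12. In M mice these include Plvap (0.52), the diaphragm protein of fenestrae, Fbln2 (0.51), fibulin-2, Ltbp4 (0.32) and Dll4 (0.22), a Notch ligand, and in F mice Ltbp4 (0.40) and Dll4 (0.30). The other sinusoidal genes gave 2 higher and 6 lower of 17 in M, and 3 higher and 5 lower in F mice, with Cd36 up by 1.34 and 0.52 and Aqp1, a water channel, at -0.27 and -0.23. After rescaling they gave 4 higher and 2 lower in M, and 5 higher and 3 lower in F mice. General endothelial genes gave 3 higher and 2 lower of 20 in M and 4 higher and none lower in F mice, among them Fli1 (0.27 in M) and Emcn (0.24 in F). After rescaling, 9 were higher and none lower in each sex. For the capillary and large vessel genes, rescaling gave 13 higher and none lower in M, and again 4 higher and 2 lower in F mice. Stellate cell and fibroblast markers rose for 7 of 13 genes in M and 5 of 13 in F mice, led by Col1a1 (1.30 in M and 0.77 in F). Their summed signal was 47.9 to 131 in M high fat, 45.4 to 162 in F high fat, 28.1 to 130 in M chow and 41.1 to 152 in F chow livers, and their part in the changes of Lyve1 and Vwf was not tested. Macrophage markers rose for 7 and fell for 1 of 14 in M mice, and rose for 1 and fell for 3 in F mice. Hepatocyte genes fell for 6 of 9 in M and 5 of 9 in F mice and rose for none, with median log2 changes of -0.27 and -0.39, and 4 and 5 were lower after rescaling. Among them Cps1, a urea cycle enzyme, fell by 0.47 in M and 0.58 in F mice, and Alb, albumin, by 0.37 in M mice. The summed signal of these 9 genes was 11470.3 to 40365 in M high fat, 15579 to 63267 in F high fat, 15988 to 35801 in M chow and 15617 to 40986 in F chow livers, and their part in the changes of the members was not tested. Lymphatic vessels also carry LYVE1. Of 4 tested lymphatic genes, Reln, which is also among the stellate cell and fibroblast markers counted above, rose in M mice and none was called in F mice. Pdpn and Foxc2 were too low to test, with highest signals of 0.290 and 0.0845. The other tested genes were uneven in level, and which liver cells the signal of each came from was not tested. Prox1 had group medians of 30.1 to 36.0, Ccl21a 0.148 to 0.180, and Mmrn1 0.055 to 0.083, near the pseudocount of 0.0629. The part of lymphatic vessels in the change of Lyve1 was not tested.

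The ligands of the receptors moved in part. Of 6 tested VEGF ligands and co-receptors, 1 rose and 3 fell on the high fat diet in M mice, and 2 rose and 1 fell in F mice. Of all tested genes, 11.4% were called higher and 39.8% lower in M mice, and 10.0% and 23.3% in F mice. After rescaling, 1 of the 6 VEGF genes was higher and 1 lower in M, and 4 higher and 1 lower in F mice. Nrp1 and Vegfb in M mice were then not called (limma adjusted p = 0.136 and 0.297). As deposited, Vegfb, a VEGF family ligand that hepatocytes also make, changed by -0.23 in M and 0.57 in F mice, a difference between the sexes of -0.81 ± 0.13 (limma adjusted p = 3.57e-06). Vegfd fell by 0.62 in M and by 0.48 in F mice, and Vegfc rose by 0.26 and 0.15. Between M and F livers, 1 of the 6 was higher and 3 were lower on high fat, and 1 was higher and 1 lower on chow. Of all tested genes, 31.5% were called higher and 18.3% lower on high fat, and 44.1% and 19.1% on chow. Nrp2, a VEGF co-receptor, was lower in M livers by -0.93 on high fat and -0.73 on chow, and Nrp1, another, was higher by 0.30 (limma adjusted p = 0.00201) and 0.54 (limma adjusted p = 5.58e-09). Angpt1, the activating ligand of Tek, was lower in M livers by -1.37 on high fat and -1.79 on chow, rose by 0.51 in M mice on high fat, and had 0.09 in F mice (limma adjusted p = 0.642). Angpt2, its partial antagonist, was not called in any of these 4 comparisons as deposited, and was higher on high fat in M mice after rescaling (0.26, limma adjusted p = 0.0287).

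Of 9 tested genes of the BMP9 and ALK1 pathway, which acts on endothelium, 1 rose (Acvrl1, 0.21) and 3 fell on high fat in M mice, and none was called in F mice, beside 39.8% and 23.3% of all genes called lower. After rescaling, 2 were higher and none lower in M, and 1 higher and none lower in F mice. In M compared with F livers, 4 were lower on high fat, and 6 lower and 2 higher on chow, with Eng at -0.26 and -0.20. Of all genes, 18.3% were called lower on high fat, and 19.1% lower and 44.1% higher on chow. Between diets, 39.8% of all genes were called lower on high fat in M and 23.3% in F mice. Of 7 factors that liver endothelium secretes, 3 fell in M and 4 in F mice on that diet. After rescaling, 2 were higher and 2 lower in M, and 4 lower and none higher in F mice, and Bmp2 in M mice was not called (limma adjusted p = 0.0967). As deposited, Bmp6, which drives hepcidin in hepatocytes, fell by 0.51 and 0.52, Bmp2 by 0.23 and 0.27, and Dkk3 by 0.41 and 0.44 in M and F mice. Wnt2 fell by 0.33 in F mice.

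The generation label also moved some members. In G11L2 compared with G11L1 mice 3 members were lower and none higher, against 0.541% of all tested genes called lower, 0.397% called higher and 0.938% called at all. Kdr had medians of 16.4 in 95 G11L2 and 18.3 in 97 G11L1 mice, with ranges of 9.43 to 23.3 and 9.66 to 24.8. Its log2 difference was -0.16 ± 0.03 (limma adjusted p = 0.00397). Stab1 differed by -0.15 ± 0.04 (limma adjusted p = 0.0343) and Tek by -0.12 ± 0.03 (limma adjusted p = 0.0313). All 10 log2 differences were negative, with a median of -0.11, beside 0.00 over all genes. Many of the members were correlated across mice, so the 10 signs are not independent. Without the 11 mice with pancreas transcripts, Kdr alone was called, and Stab1 (-0.15, limma adjusted p = 0.0584) and Tek (-0.11, limma adjusted p = 0.0720) were not. Of 9 tested pancreas genes, none was called between the generations, and their median log2 difference was 0.74. That median was -0.07 for other sinusoidal, -0.08 for general endothelial and -0.08 for capillary and large vessel genes. In those lists 3 of 17, 1 of 20 and 1 of 19 were called lower. It was -0.16 for stellate cell and fibroblast, -0.12 for macrophage, -0.06 for hepatocyte and 0.09 for lymphocyte markers.

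Spread between mice did not pass the test for any member. On the absolute deviation from the group median, limma called 0 of 10 members for high fat minus chow, against 2.23% of all tested genes, and 0 of 10 for M minus F, against 4.90%. At an unadjusted p under 0.05 there were 2 members in each comparison, Kdr and Ptprb more scattered on high fat, and Oit3 and Ptprb more scattered in M mice. The share of all tested genes at that unadjusted threshold is not given here, so these counts have no background beside them. The SD of log2 Kdr was 0.309 in M high fat, 0.259 in F high fat, 0.231 in M chow and 0.164 in F chow livers.

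Within groups, many pairs of members ran together across mice. Pearson correlations of the log2 signal were computed for the 45 pairs of members in each group, with permutation p-values adjusted over all 180 and called under 0.05. The generation difference, negative for every member, was not removed here, and its part in r was not tested. Of the 45 pairs, 23 were called in M high fat, 25 in F high fat, 23 in M chow and 16 in F chow livers, and all 87 were positive. With Spearman's rho 22, 22, 26 and 15 were called in those groups. After median-of-ratios rescaling, 8 of the 180 Pearson values lost their call and 4 gained one. The share of called pairs among other tested genes is not given here. The median r over the pairs was 0.34 in M high fat, 0.37 in F high fat, 0.37 in M chow and 0.21 in F chow livers, and whether the groups differ in it was not tested.

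Kdr and Ptprb formed the closest pair, with r = 0.78 in 46 M high fat, 0.73 in 48 F high fat, 0.72 in 48 M chow and 0.57 in 50 F chow livers (two-sided permutation tests, adjusted p = 9.5e-05 in the first 3 groups and 0.000138 in F chow, near the smallest that 100000 permutations can give). Spearman's rho was 0.79, 0.60, 0.70 and 0.59. Without the 2 mice farthest from the Kdr median, r was 0.71, 0.59, 0.64 and 0.60. Kdr, Ptprb, Stab1 and Stab2 were correlated with each other in all 4 groups, and Tek with Kdr and Ptprb in all 4. Kdr with Stab1 gave r of 0.70, 0.70, 0.60 and 0.59, and Stab1 with Stab2, the scavenger receptors, 0.57, 0.51, 0.46 and 0.51.

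Clec4g joined this set in some groups. With Oit3 it gave r = 0.53 in M high fat, 0.53 in F high fat and 0.62 in M chow livers, all called, and 0.12 in F chow livers (permutation adjusted p = 0.515, n = 50). None of the 9 pairs of Clec4g was called in F chow livers. Whether its correlations differ between groups was not tested.

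Lyve1 and Vwf, the members that rose on the high fat diet, ran apart from the others. Of the 36 values of Lyve1, 2 were called, both with Pecam1: r = 0.53 in M high fat (rho 0.51, permutation adjusted p = 0.000600) and 0.47 in F high fat livers (rho 0.47, permutation adjusted p = 0.00212), against 0.01 in M chow and 0.27 in F chow livers. Without the 2 mice farthest from the Lyve1 median, r in the high fat groups was 0.46 and 0.46. Whether the r of Lyve1 with Pecam1 differs between the diets was not tested. Of the 36 values of Vwf, 5 were called, with Pecam1 in all 4 groups (r = 0.36, 0.37, 0.37 and 0.34) and with Ptprb in M high fat livers (r = 0.34). By rho, Vwf with Pecam1 in F chow livers (0.27, permutation adjusted p = 0.112) and Vwf with Ptprb in M high fat livers (0.31, permutation adjusted p = 0.0793) were not called. Lyve1 with Vwf gave r between 0.08 and 0.21, and none was called.

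**Figure D4:**
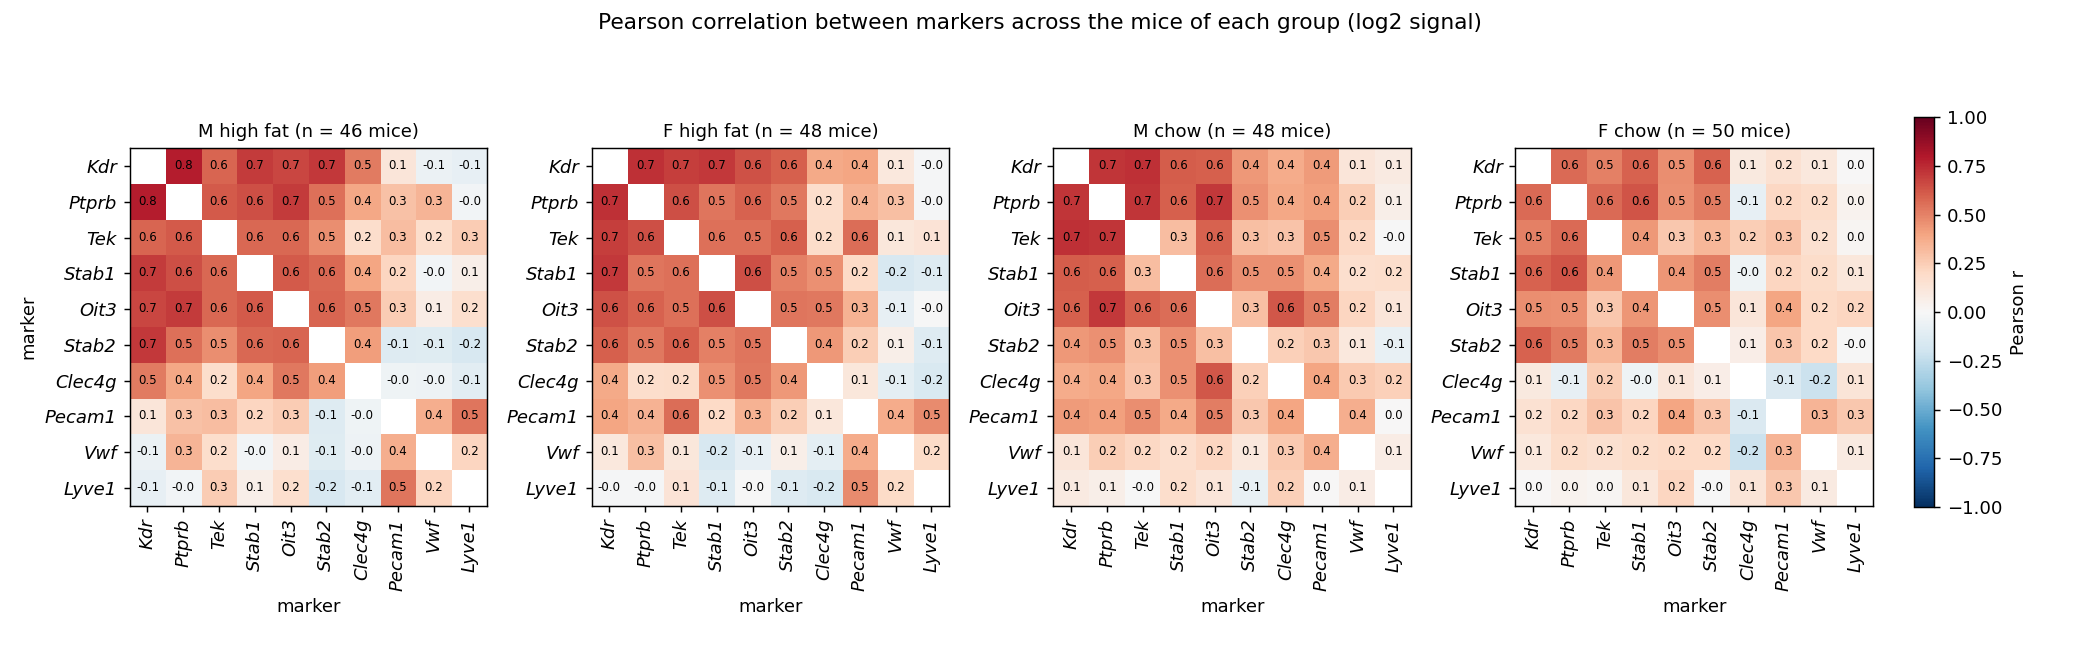
Pearson r of the log2 signal for each pair of markers (rows and columns) across the mice of each group, from -1 in blue to 1 in red, with r printed in each square. Kdr, Ptprb, Tek, Stab1, Oit3 and Stab2 form the block of positive r at the upper left in all 4 groups, with values from 0.27 to 0.78. Lyve1 and Vwf at the lower right are mostly paler. Their highest values are with Pecam1, though Lyve1 with Pecam1 is 0.01 in M chow livers and Vwf with Ptprb reaches 0.34.

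Across all 192 mice, with group means and the generation difference removed, each member was set beside every other tested gene. These r values share libraries and are given as a description. Kdr was most like Fcgr2b (r = 0.67), Stard8 (0.66) and Adgrl4 (0.65). Ptprb was most like Adgrf5 (0.75), an adhesion receptor of endothelium, Fgd5 (0.69) and Kmt2c (0.68), a histone methyltransferase. Oit3 was most like Adgrl4 (0.71), Eng (0.69), the TGF-beta co-receptor endoglin, and Gpr182 (0.64). Tek was most like F8 (0.61), coagulation factor VIII, which sinusoidal endothelium makes, Adgrl4 (0.60) and Fgd5 (0.56). Stab1 was most like Arap3 (0.61), Fcgr2b (0.61) and Eng (0.59), and Stab2 most like Fat4 (0.52), Dab2 (0.47) and Npr1 (0.46).

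Pecam1 was most like Cdh5 (0.53), the junction protein VE-cadherin, Msn (0.52) and Fyn (0.50). Vwf, whose protein binds factor VIII in blood, was most like Fbln2 (0.46), Adgrg6 (0.41) and Ntn4 (0.36), and the first pair of these were in the list of capillary and large vessel genes. The genes with the highest mean r over the 10 members were Fgd5 (0.44), Arhgap31 (0.43), Adgrl4 (0.42), Adgrf5 (0.41), Fcgr2b (0.39), F8 (0.39), Gpr182 (0.38), Fat4 (0.38), Stard8 (0.38) and Arhgef15 (0.38). Each member's mean r with the other members was set beside the mean r of other named genes with the 10. It was higher than for 69.2% of those genes for Lyve1, 77.1% for Vwf, 97.5% for Clec4g and 99.2% for Pecam1. For the remaining members it was higher than for at least 99.7%. Longer genes were more like several members, though not in step with the member's own length. Ptprb had a median r of 0.19 with 2368 genes of at least 8 kb of exon and -0.02 with 2448 genes under 2 kb, and Kdr had 0.19 and 0.00. For Clec4g (2.46 kb) these were 0.03 and 0.07, and for Lyve1 (2.92 kb) -0.02 and -0.02. Vwf, the longest member (16.1 kb), had 0.01 and -0.03, while Tek (4.71 kb) had 0.15 and -0.03 and Oit3 (2.79 kb) 0.09 and 0.02. Stab1 had 0.11 and 0.01, Stab2 0.11 and 0.00, and Pecam1 -0.04 and -0.06. The part of exon length in the correlations among members was not tested.

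Lyve1 and Clec4g were most like genes beside them on the chromosome, a pattern chosen for description after the values were seen. Lyve1, at chromosome 7, 110850607 to 110863239 of GRCm38, was most like Mrvi1 (r = 0.44), which lies 5.03 kb away and encodes a substrate of cGMP-dependent kinase, followed by Pla2g7 (0.35), a phospholipase, and Kcne3 (0.34). Clec4g, at chromosome 8, 3707064 to 3720651, was most like Mcoln1 (0.51), a lysosomal channel 192 kb away, and Pex11g (0.50), a peroxisomal protein 239 kb away, followed by Cd300lg (0.50). Within groups, Lyve1 with Mrvi1 gave r = 0.31 in M high fat, 0.47 in F high fat, 0.58 in M chow and 0.42 in F chow livers, and Clec4g with Mcoln1 gave 0.56, 0.49, 0.54 and 0.40. Mcoln1 and Pex11g gave 0.65, 0.52, 0.55 and 0.57 with each other.

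Among the genes within 500 kb, 3 of 21 for Clec4g, 1 of 7 for Lyve1 and 1 of 8 for Stab2 (Syn3, r = 0.40) were in the 20 most like genes of the member, and none for the other 7 members. Those 20 were taken from all tested genes, 14602 in number. The median r of neighbours, then of all tested genes, was 0.16 and 0.06 for Clec4g, 0.12 and -0.02 for Lyve1, and 0.11 and 0.04 for Stab2. It was 0.12 and 0.05 for Stab1, 0.19 and 0.05 for Ptprb, and 0.14 and 0.04 for Oit3. For Kdr these were -0.03 and 0.07, for Tek 0.001 and 0.04, for Pecam1 -0.11 and -0.06, and for Vwf -0.002 and -0.02. Lyve1 and Mrvi1 shared no 31-base words.

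**Figure D5:**
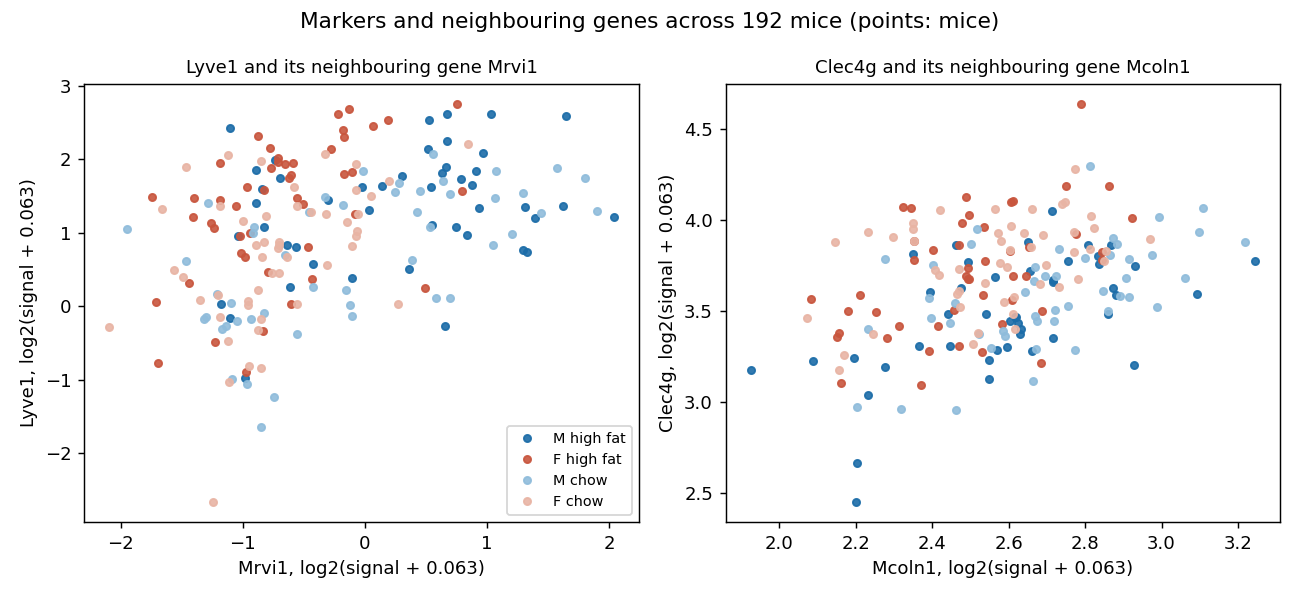
Log2 signal of Lyve1 against Mrvi1 (left) and of Clec4g against Mcoln1 (right), with a point for each of 192 mice coloured by group. Mice with more Mrvi1 had more Lyve1 (r from 0.31 to 0.58 within groups), and mice with more Mcoln1 had more Clec4g (r from 0.40 to 0.56).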

How the data were processed

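Liver RNA was sequenced as single-end reads of 100 bp, with 2 technical repeats per mouse, and the authors deposited a table with 1 column per mouse for 21454 genes. Its values are a signal that the title of the deposited table calls upper-quartile normalized; the 75th percentile of values above 0 ran from 5.12 to 8.39 across mice. The submitters' processing notes list the tool CASAVA (1.8.0) and, as builds, mm10 and GRCm38. Which aligner, counter and annotation were used is not given in the sources used here. GENCODE M21 held 21022 of the gene identifiers.

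Per mouse, 76.8% to 82.5% of low values came within 0.1 of whole reads, so counts could not be recovered and count models were left out. Genes with a value above 0 in at least 46 mice and a mean of at least the pseudocount were kept. limma 3.58.1 in R 4.3.3 fitted log2(signal + 0.0629) in 4 groups with generation as covariate and a mean-variance trend, checked on simulated data. A log2 change on this scale understates changes of low genes. The pseudocount is 1/100 of the median upper quartile. Correlations used two-sided tests with 100000 permutations in Python 3.11.15. Sequences are from RefSeq, and 5 of the members had a promoter entry. Alternatives were other pseudocounts, filters, scalings, weights and subsets of mice. Members and gene lists were chosen with earlier results of these data known. All members are named, and so are the 3 genes most like each, the 10 most like all, and from each list those with the smallest p-values, some of which enter counts only. The bins of exon length, the 500 kb windows and the threshold of 5 times the median for pancreas RNA were chosen after seeing the data.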

Additional observations from a re-analysis of the deposited data

Results flagged for a closer look

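The diet change of Vwf differed between M and F mice: the interaction was 0.27 ± 0.08 on the log2 scale (limma adjusted p = 0.0278), with a change of 0.45 in M and 0.18 in F mice. This interaction lost its call in G11L2 mice alone (0.18, limma adjusted p = 0.592). It was the only one called among the 10 members, beside 8.38% of all tested genes. No group was small enough for a test of single extreme mice.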

How the results depend on the processing

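The falls of members on the high fat diet depend on the scaling. The number of members called lower was 2 in M and 1 in F mice as deposited, and 0 and 0 after median-of-ratios rescaling or quantile normalization. Quantile normalization called 4 higher in M mice instead of 2. Those scalings called 5281 and 4906 of all genes for diet in M mice instead of 7479, and 617 and 633 for the interaction instead of 1223. With rescaling, the share of calls that were higher was 53.6% instead of 22.3% for diet in M, 50.6% instead of 30.0% for diet in F, 50.4% instead of 17.4% for the interaction, 48.1% instead of 63.3% for sex on high fat, 47.0% instead of 69.7% for sex on chow and 59.2% instead of 42.3% for generation. The cause was not tested.

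With fewer mice, calls were lost. In G11L1 mice alone, 0 members were called lower for diet in M, 0 higher for diet in F, 4 lower for sex on high fat and 5 on chow. In G11L2 mice alone, 1 was higher and 1 lower for diet in M, 0 lower for diet in F, 0 for the interaction and 3 lower for sex on chow. Over all genes, G11L2 and G11L1 mice alone gave 2432 and 2348 calls for diet in F instead of 4860, 54 and 546 for the interaction, 29 and 39 for spread by diet, and 192 and 192 for spread by sex, and G11L2 mice alone gave 4930 for diet in M and 4748 instead of 7263 for sex on high fat. Without the 11 mice with pancreas transcripts, 1 member was lower in G11L2. All genes called for generation, 137, became 262 with rescaling, 254 with quantile normalization and 344 with array weights. For spread by diet, 325 genes became 576 and 185 with a pseudocount 10 times larger and 10 times smaller, 36 with normal scores, 205 with array weights and 183 without the 10 least alike mice. For spread by sex, 715 became 1092 with the larger pseudocount, 1205 without a filter and 165 with normal scores.

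Mouse numbers shared by an F and an M mouse did not pair the samples: over 92 pairs of mice, deviations from the group means correlated at -0.178 to 0.316 (median 0.003), with 9 pairs over 0.1, and 3 F mice correlated best with their own number. With the number as a replicate block, the members called were again 2 higher and 2 lower for diet in M, and no log2 change of a member moved by more than 0.00109. Depth limits Lyve1 and Vwf most among the members, whose lowest mice lay at 1.49 and 22.7 pseudocounts.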
